A study of Mus musculus with 15 samples.

Results

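Cell division in G1 is held back by small proteins that bind cyclin-dependent kinases, and the genes of 6 of these inhibitors were followed across 2 mouse high-grade neuroendocrine lung carcinoma lines, the allograft tumors grown from them, and normal lung. The 6 genes were taken by name from the 55359 genes of the deposited expression matrix. They are the 4 genes of the INK4 family (Cdkn2a, Cdkn2b, Cdkn2c and Cdkn2d) and the Kip genes Cdkn1b and Cdkn1c. Cdkn1a, which encodes the remaining Kip protein p21, was read with the pathway genes.

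The 15 samples formed 5 groups of 3. 46LCNEC_cell and 57SCLC_cell are cultures of a large cell neuroendocrine carcinoma (LCNEC) line and a small cell lung carcinoma (SCLC) line, 46LCNEC_allo and 57SCLC_allo are subcutaneous tumors grown from those lines, and Lung is normal lung. All of the mice behind them belong to the QKO strain, which carries floxed alleles that Cre recombinase deletes, among them Trp53 F/F and Rb1 F/F, and no working Rbl1 gene (Rbl1-/-). The 46LCNEC line came from a tumor induced with the adenovirus Ad-CMVcre, in which a general viral promoter drives Cre, and it was sampled at passage 17 from 3 dishes of adherent cells. The 57SCLC line came from a tumor induced with Ad-K5cre, in which a keratin 5 promoter drives Cre, and it was sampled at passage 11 from 3 flasks of floating aggregates. The allografts grew in immunocompetent QKO recipients, so each tumor sample also held vessels, fibroblasts and leukocytes of the host. The Lung samples came from littermates of the recipients, for which no Cre vector is stated. Ages were not stated in the sources used here. Each line is 1 line from 1 tumor, so the p-values below measure the spread between dishes, flasks, tumors or lungs and not the spread between independently derived lines.

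INK4 proteins bind Cdk4 and Cdk6 and keep the D-type cyclins from activating them, and these kinases act mainly by phosphorylating the retinoblastoma protein Rb. Kip proteins act later and more widely, chiefly on Cdk2 bound to cyclin E or cyclin A. The locus of Cdkn2a encodes 2 unrelated proteins in different reading frames, the INK4 protein p16Ink4a and p19Arf, which stabilizes p53 by inhibiting Mdm2. Loss of Rb function is a hallmark of SCLC and frequent in LCNEC, and tumors that lack Rb often carry abundant p16Ink4a.

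Poly-A RNA was sequenced, and the values are normalized counts: reads per gene divided by a size factor of the library. Reads counted in genes per sample lay between 9480244 and 44876572 (median 26502525). In 57SCLC_cell and 57SCLC_allo all 6 of the neuroendocrine markers tested (Chga, Syp, Ncam1, Elavl3, Elavl4 and Scg3) rose against Lung. By the same thresholds, given below, 53.8% and 45.8% of all genes changed in these groups, in either direction. In 46LCNEC_cell and 46LCNEC_allo the shares were 55.6% and 35.6%. In 46LCNEC_cell 2 of the 5 tested rose against Lung, Ncam1 with a log2 difference of 8.60 and Elavl3 with 1.73 (mean 15.2 normalized counts), and Syp, Elavl4 and Scg3 fell, with log2 differences of -2.04, -3.49 and -4.64. In 46LCNEC_allo Ncam1 rose by 5.87 and the same 3 genes fell, with log2 differences of -2.62, -2.06 and -3.51. The 46LCNEC means of Ncam1 were 29936 in the cells and 4827 in the allografts, against 4.2 and 10.6 for Chga and 13.7 and 9.4 for Syp. The surfactant gene Sftpc averaged 73317 in Lung and at most 17.7 in each other group. The 46LCNEC_allo tumors differed most among themselves, with 5.74 to 8.80% of the well-expressed genes (group mean of at least 100) more than 2-fold away from the mean of the other tumors, against at most 2.89% in any other sample. The 8 proliferation markers summed to 1268 to 1608 normalized counts in Lung and to 21653 or more in every cell and tumor sample.

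Cdkn2a (ENSMUSG00000044303) and Cdkn2b (ENSMUSG00000073802) lie 10314 bases apart on chromosome 4 of the mouse genome build GRCm39, at chr4:89192708-89212890 and chr4:89223204-89229276, both on the minus strand. The Cdkn2a transcripts start at different exons, at 89212890 for Arf and at 89200429 for Ink4a, and then share an exon of 341 bases, so that 578 bases in a row are identical between them and a count per gene cannot tell them apart. Cdkn2c (ENSMUSG00000028551, chr4:109517957-109524386) lies on the same chromosome and strand, and Cdkn2d (ENSMUSG00000096472, chr9:21199700-21202727) on the minus strand of chromosome 9. The Kip genes are Cdkn1b (ENSMUSG00000003031, chr6:134897364-134902476, plus strand) and Cdkn1c (ENSMUSG00000037664, chr7:143012069-143014806, minus strand).

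The 250 bases before 4 of the transcript starts are shown because the INK4 genes moved in different directions, as given below, and because E2F factors, which Rb restrains, are known to bind the Arf promoter. All are written 5′ to 3′ on the gene's own minus strand, from GRCm39, with any E2F octamer (letters given after the sequences) in capitals. They are the Arf start (chr4:89212891-89213140), the Ink4a start (chr4:89200430-89200679), Cdkn2b (chr4:89229277-89229526) and Cdkn2d (chr9:21202728-21202977).
Cdkn2a-202 (Arf): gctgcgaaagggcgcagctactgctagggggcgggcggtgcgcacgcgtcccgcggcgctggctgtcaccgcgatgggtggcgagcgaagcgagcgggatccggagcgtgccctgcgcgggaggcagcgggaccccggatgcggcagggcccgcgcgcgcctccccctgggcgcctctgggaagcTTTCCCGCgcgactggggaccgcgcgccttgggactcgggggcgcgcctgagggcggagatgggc
Cdkn2a-201 (Ink4a): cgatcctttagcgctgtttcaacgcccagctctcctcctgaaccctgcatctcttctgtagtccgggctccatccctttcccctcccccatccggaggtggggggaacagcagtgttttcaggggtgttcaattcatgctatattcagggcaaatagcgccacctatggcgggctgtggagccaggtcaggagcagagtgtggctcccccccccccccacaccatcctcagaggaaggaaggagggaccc
Cdkn2b-201: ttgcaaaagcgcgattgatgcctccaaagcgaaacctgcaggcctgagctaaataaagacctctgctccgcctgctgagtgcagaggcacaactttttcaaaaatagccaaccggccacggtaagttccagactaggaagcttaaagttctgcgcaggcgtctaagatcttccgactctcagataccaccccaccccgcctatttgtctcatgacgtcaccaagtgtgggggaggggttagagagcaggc
Cdkn2d-203: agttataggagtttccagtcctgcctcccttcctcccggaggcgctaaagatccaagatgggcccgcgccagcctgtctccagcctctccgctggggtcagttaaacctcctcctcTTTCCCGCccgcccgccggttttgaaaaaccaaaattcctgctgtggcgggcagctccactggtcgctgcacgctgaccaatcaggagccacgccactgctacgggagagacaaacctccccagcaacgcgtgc

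An E2F octamer (TTTCCCGC, TTTCGCGC, TTTGCCGC or TTTGGCGC on either strand) was found 65 bases before the Arf start and 134 bases before the Cdkn2d start. None of these letters was found in the windows of Ink4a, Cdkn2b, Cdkn2c, Cdkn1b or Cdkn1c. Of 21593 promoters of protein-coding genes of the same length, 495 (2.29%) held a match. The GC box GGGCGG, which 36.4% of the promoters held, was found 7 times in the Cdkn1c window, 3 times in the Arf window, 2 times in that of Cdkn2d, 1 time each in those of Cdkn2c and Cdkn1b, and in neither the Ink4a nor the Cdkn2b window. The shares of G and C were 77.6% for Arf, 60.0% for Ink4a, 52.8% for Cdkn2b and 61.2% for Cdkn2d. The letters TATAAA (11.9% of promoters) and the forkhead motif GTAAACA (2.72%) were found in none of the members' windows. A match of letters describes the sequence and is no evidence of binding. The nearest relatives, Cdkn2a and Cdkn2b, share at most 23 bases in a row in their transcripts (cgggaaggcttcctggacacgct), well short of the 150 bases of each read, so reads of one are not easily counted for the other.

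All 6 members passed the filter on low values in every comparison. A gene was called changed where its p, adjusted by the method of Benjamini and Hochberg, was 0.01 or less and the fold change 2 or more, from limma on log2(normalized count + 1), and all fold changes below are on that scale. In 46LCNEC_cell against Lung 3 of the 6 members were called, 2 higher and 1 lower, where 55.6% of all 18142 genes tested were called. In 46LCNEC_allo against Lung 2 were called, both higher, where 35.6% of all genes were called. In 57SCLC_cell against Lung 5 were called, 4 higher and 1 lower, with a background of 53.8%, and in 57SCLC_allo against Lung 4 were called, 3 higher and 1 lower, with a background of 45.8%. These shares of members lie on either side of the backgrounds, and with 6 genes they say little about the family as a whole.

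Between the lines, 5 members were called in 57SCLC_cell against 46LCNEC_cell (3 higher and 2 lower, background 46.1%) and 2 in 57SCLC_allo against 46LCNEC_allo (both lower, background 30.4%). Between tumor and culture, 1 member was called higher in 46LCNEC_allo against 46LCNEC_cell (background 22.8%). In 57SCLC_allo against 57SCLC_cell 0 members were called by limma, by edgeR or by DESeq2 (background 16.6%), although 5 of the 6 had an unadjusted p under 0.05 and 3 an adjusted p of at most 0.01 with less than a 2-fold change. The difference between the lines differed between allografts and cultures for 2 members, Cdkn2c and Cdkn1c, by the interaction term over 12 samples (background 17.5%). The median log2 difference of the members from Lung was 0.60 in 46LCNEC_cell, 0.72 in 46LCNEC_allo, 1.51 in 57SCLC_cell and 1.00 in 57SCLC_allo, where the medians over all genes were -0.23, -0.14, -0.12 and -0.087. The 4 comparisons with Lung share the same lungs and are not independent of each other.

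**Figure D1:**
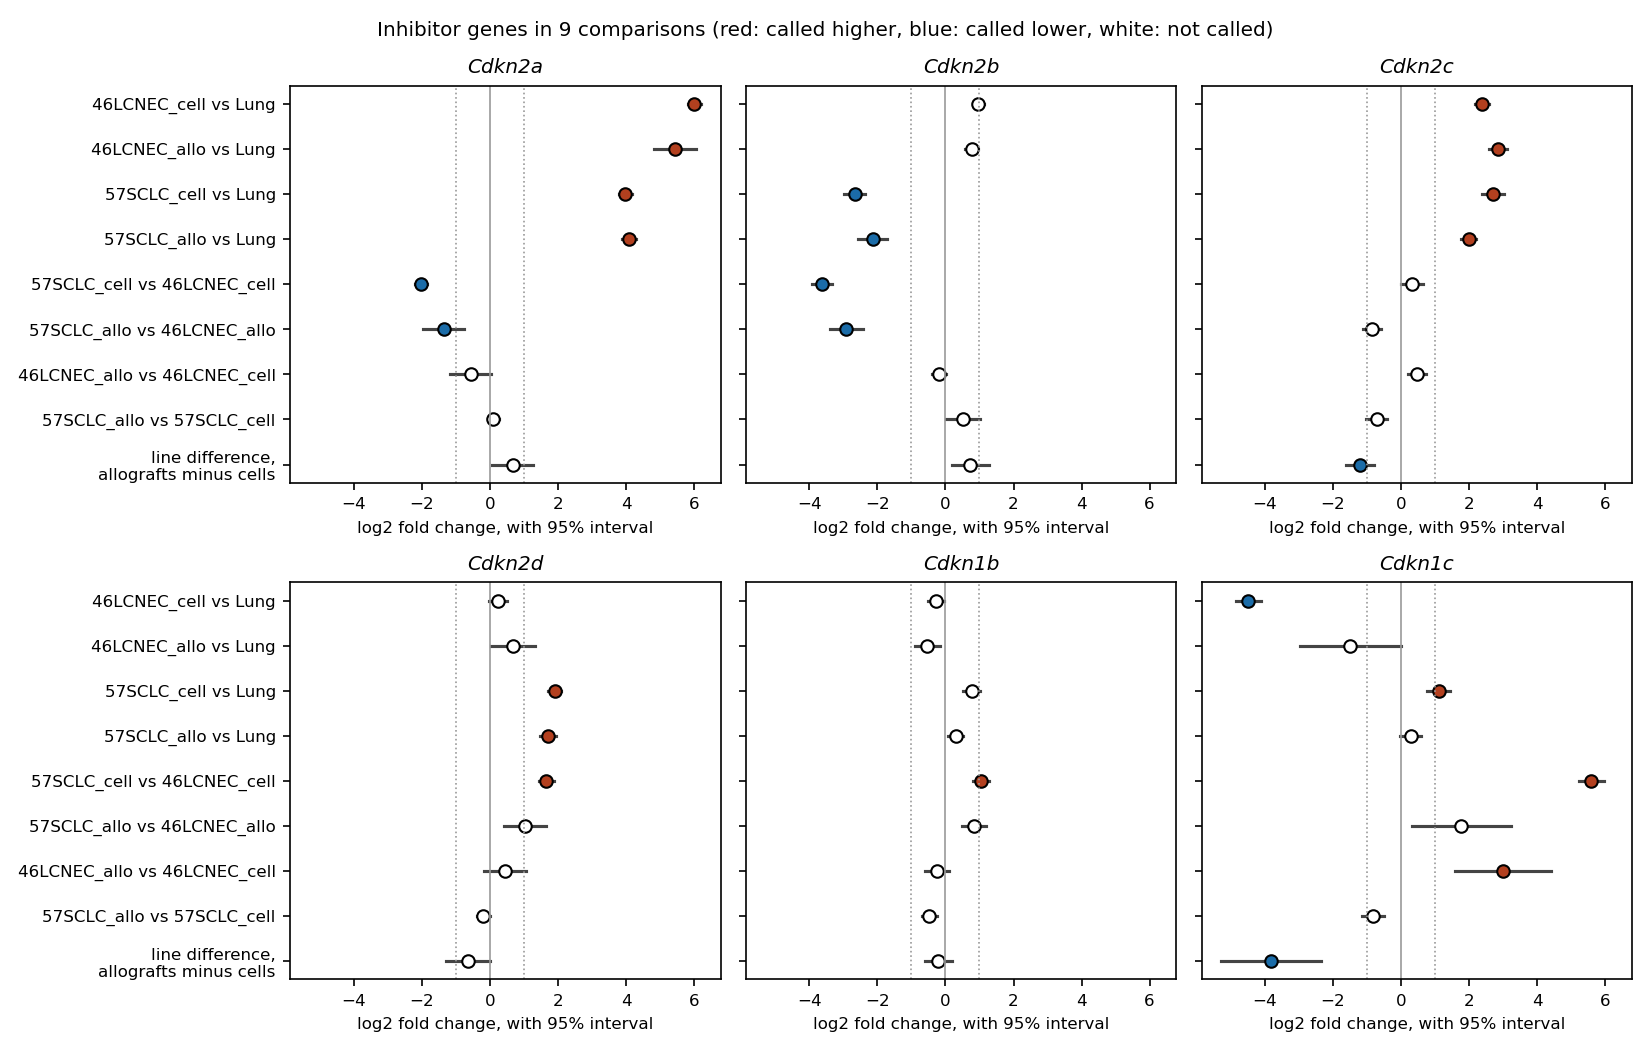
Log2 fold change of each member (x axis, 95% interval as a bar) in 8 comparisons of groups and in the interaction, 1 panel per gene, with red for called higher, blue for called lower and white for not called. Dotted lines mark a 2-fold change. Cdkn2a lay at 3.99 or above against Lung in all 4 cell and tumor groups, while Cdkn2b and Cdkn1c changed sides between the lines.

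Cdkn2a was the member with the largest change against Lung in each group, and it was high in every cell and tumor sample. Lung held 185, 214 and 197 normalized counts (CT3, CT4 and CT5). The 46LCNEC dishes A, B and C held 11760, 13624 and 13198, and the 46LCNEC_allo tumors 312, 319 and 321 held 5662, 10299 and 11188. No 2 groups overlapped in range: 57SCLC lay between Lung and 46LCNEC. The 57SCLC flasks A, B and C held 3210.2, 3152 and 3100.3, and the 57SCLC_allo tumors 275, 316 and 317 held 3378, 3402 and 3386. Tumor 312 stood apart from the other 46LCNEC_allo tumors with the lowest Cdkn2a of that group, still above every 57SCLC sample.

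Against Lung, Cdkn2a rose by 6.01 on the log2 scale in 46LCNEC_cell (64.4-fold, SE 0.088, 95% interval 5.81 to 6.21, adjusted p = 1.383e-10). It rose by 5.44 in 46LCNEC_allo (SE 0.26, adjusted p = 1.492e-05), by 3.99 in 57SCLC_cell (SE 0.085, adjusted p = 1.592e-08) and by 4.09 in 57SCLC_allo (SE 0.086, adjusted p = 3.875e-08). The lines also differed from each other. Cdkn2a was 4.07-fold lower in 57SCLC_cell than in 46LCNEC_cell (log2 difference -2.02, SE 0.078, adjusted p = 1.430e-07). In the allografts the log2 difference was -1.36 (SE 0.25, adjusted p = 0.003807). The call was lost without tumor 319 (-1.23, adjusted p = 0.0116) or without any 1 of the 57SCLC_allo tumors (-1.36 to -1.35, adjusted p between 0.0170 and 0.0182). Without a 57SCLC_allo tumor the log2 difference hardly moved, while the calls over all genes fell from 5312 to between 3307 and 3506. The Cdkn2a call was also lost with libraries scaled by their total reads (-1.09, adjusted p = 0.0134) and when tested against a fold change of 2 (adjusted p = 0.342). Between tumor and culture the log2 difference was -0.57 for 46LCNEC (95% interval -1.16 to 0.02) and 0.10 for 57SCLC (-0.05 to 0.26), neither called. Whether p16Ink4a or p19Arf transcripts made up these reads could not be read from counts per gene.

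**Figure D2:**
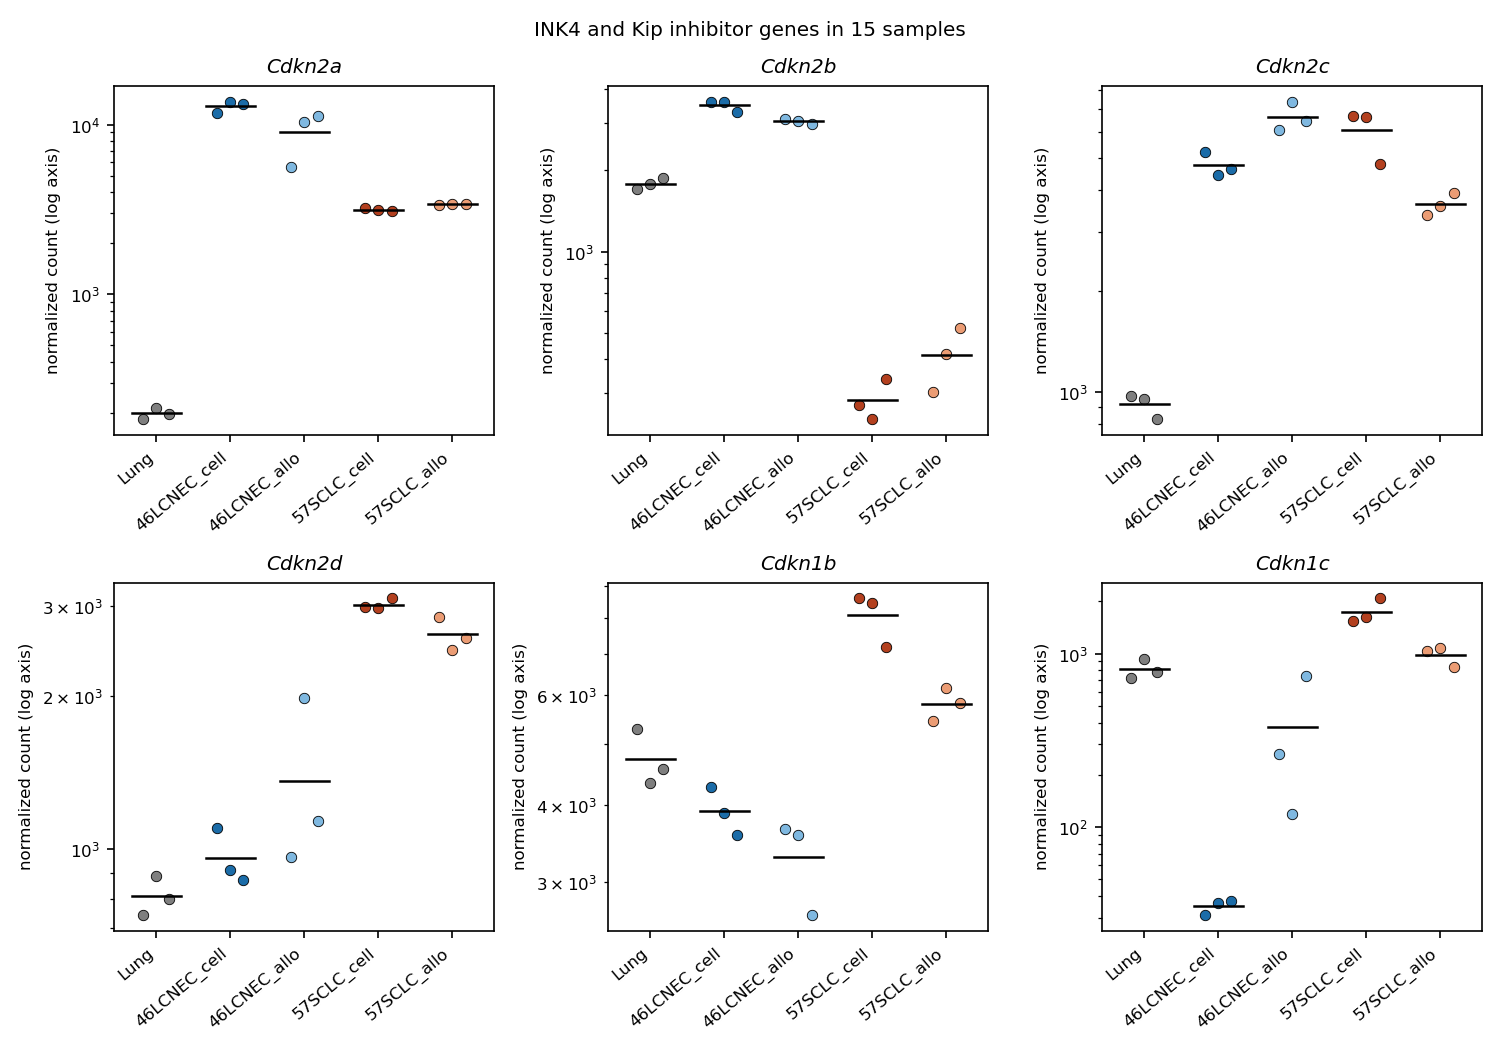
Normalized counts of the 6 members (y axis, log scale) in the 3 samples of each group (dots), with a line at the group mean. Cdkn2a ran from 185 in Lung to 13624 in 46LCNEC_cell, and Cdkn1c from 31.0 in 46LCNEC_cell to 2082 in 57SCLC_cell.

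Cdkn2b, which encodes the INK4 protein p15, a target of TGF-beta signaling, separated the lines. Lung held 1711, 1781 and 1871 normalized counts. The dishes of 46LCNEC_cell held 3589, 3590.2 and 3279, and the tumors of 46LCNEC_allo 3103, 3044 and 2967. Every 46LCNEC sample therefore lay above every lung. The flasks of 57SCLC_cell held 271, 240.04 and 337, and the tumors of 57SCLC_allo 302, 419 and 521, all below every lung and overlapping each other.

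In 57SCLC Cdkn2b fell against Lung, by 2.67 on the log2 scale in the cells (SE 0.13, adjusted p = 6.464e-07) and by 2.14 in the allografts (SE 0.18, adjusted p = 1.924e-05). In 46LCNEC the log2 differences from Lung were 0.96 in the cells (SE 0.071, 95% interval 0.80 to 1.13, adjusted p = 1.446e-06) and 0.77 in the allografts (SE 0.082, adjusted p = 3.081e-04). The change was just short of 2-fold in the cells and 1.7-fold in the allografts, so neither was called. Under upper-quartile scaling (1.16), or without dish C (1.01), the change in the cells was called. Between the lines Cdkn2b was 12.4-fold lower in 57SCLC_cell (log2 difference -3.63, SE 0.13, adjusted p = 8.820e-08) and 7.51-fold lower in 57SCLC_allo (log2 difference -2.91, SE 0.20, adjusted p = 4.965e-05). The neighbors Cdkn2a and Cdkn2b were both higher in 46LCNEC than in 57SCLC, but against Lung they moved in opposite directions in 57SCLC.

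The nearest protein-coding gene on the other side of Cdkn2a is Mtap, 93389 bases away, which encodes an enzyme of methionine salvage. It followed the pattern of Cdkn2b rather than that of Cdkn2a in its direction against Lung. The means were 568 normalized counts in Lung, 8159 in 46LCNEC_cell, 4220 in 46LCNEC_allo, 182 in 57SCLC_cell and 229 in 57SCLC_allo. Mtap rose by 3.84 on the log2 scale in 46LCNEC_cell (adjusted p = 1.437e-09) and by 2.87 in 46LCNEC_allo (adjusted p = 3.653e-05), and fell by 1.64 in 57SCLC_cell (adjusted p = 1.464e-05) and by 1.33 in 57SCLC_allo (adjusted p = 3.637e-04). Dmrta1, 338397 bases beyond Cdkn2b, was low throughout, with means from 2.1 in Lung to 48.5 in 46LCNEC_cell. The genes of this stretch were thus read in both lines, Cdkn2a, Cdkn2b and Mtap each with 115 reads or more in every cell and tumor sample.

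The long noncoding RNA gene Gm12610 (chr4:89213049-89452672, plus strand), singled out after its values were seen, starts 159 bases from the Arf start, inside the Arf window printed above, and runs opposite to Cdkn2b without sharing exon bases with it. Its means were 16.3 in Lung, 808 in 46LCNEC_cell, 284 in 46LCNEC_allo, 355 in 57SCLC_cell and 301 in 57SCLC_allo. It rose against Lung in all 4 groups, by 5.56, 4.06, 4.37 and 4.14 on the log2 scale in that order (adjusted p at most 5.704e-05).

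**Figure D3:**
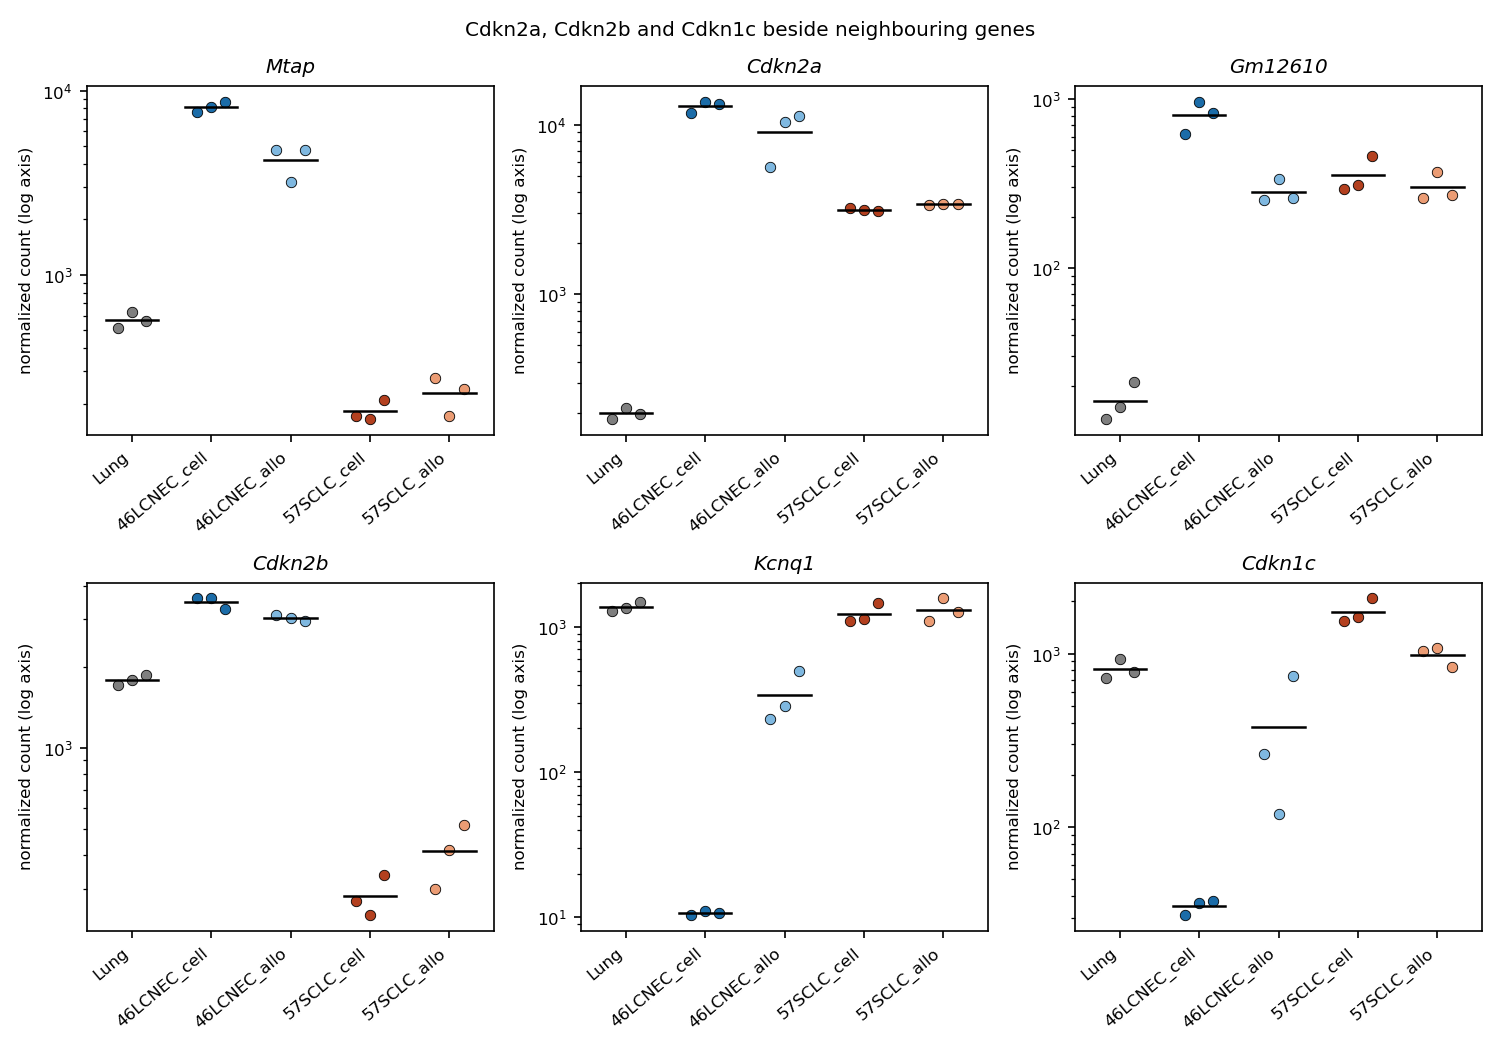
Normalized counts (y axis, log scale) of Mtap, Cdkn2a, Gm12610 and Cdkn2b from chromosome 4 and of Kcnq1 and Cdkn1c from chromosome 7, in the 3 samples of each group, with a line at the group mean. Mtap and Cdkn2b were below Lung in 57SCLC where Cdkn2a and Gm12610 were above it, and Kcnq1 and Cdkn1c were both lowest in 46LCNEC_cell.

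Cdkn2c, which encodes the INK4 protein p18, was high in both lines. Lung held 970.2, 952 and 831 normalized counts. The dishes of 46LCNEC_cell held 5210.0, 4450.0 and 4626, and the tumors of 46LCNEC_allo 6044, 7360.4 and 6432. The flasks of 57SCLC_cell held 6689, 6635 and 4814, and the tumors of 57SCLC_allo 3373, 3601 and 3921. All 12 cell and tumor samples were above all lungs, and flask C of 57SCLC_cell, the lowest of its group, fell among the 46LCNEC_cell dishes.

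Against Lung, Cdkn2c rose by 2.37 on the log2 scale in 46LCNEC_cell (SE 0.090, adjusted p = 1.846e-08), by 2.85 in 46LCNEC_allo (SE 0.11, adjusted p = 9.137e-06), by 2.71 in 57SCLC_cell (SE 0.14, adjusted p = 8.628e-07) and by 1.98 in 57SCLC_allo (SE 0.092, adjusted p = 7.367e-07). The difference between the lines had opposite signs in culture and in tumors. The log2 difference of 57SCLC from 46LCNEC was 0.33 in the cells (95% interval 0.01 to 0.65, adjusted p = 0.0566) and -0.86 in the allografts (95% interval -1.13 to -0.59, adjusted p = 8.031e-04), neither reaching a 2-fold change. The difference between these differences was -1.19 (SE 0.19, 95% interval -1.60 to -0.78, adjusted p = 4.808e-04). It was made up of a log2 difference of allograft from culture of 0.47 in 46LCNEC (adjusted p = 0.0119) and -0.72 in 57SCLC (adjusted p = 0.00384). Tested against a fold change of 2, the interaction was not called (adjusted p = 0.745).

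Cdkn2d encodes the INK4 protein p19Ink4d, which is unrelated to p19Arf, and it was high in 57SCLC. Lung held 742, 887 and 797 normalized counts. The dishes of 46LCNEC_cell held 1099.6, 913 and 869.5, and the tumors of 46LCNEC_allo 964, 1982 and 1136. These 3 groups ran into each other, with tumor 319 above the rest. The flasks of 57SCLC_cell held 2988, 2976 and 3112, and the tumors of 57SCLC_allo 2863, 2466 and 2601, above all of them.

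Cdkn2d rose against Lung by 1.91 on the log2 scale in 57SCLC_cell (SE 0.084, adjusted p = 3.563e-07) and by 1.71 in 57SCLC_allo (SE 0.095, adjusted p = 1.826e-06). In 46LCNEC the log2 differences from Lung were 0.24 in the cells (95% interval -0.01 to 0.50, adjusted p = 0.0683) and 0.68 in the allografts (95% interval 0.04 to 1.32, adjusted p = 0.0620). It rose by 1.66 in 57SCLC_cell against 46LCNEC_cell (SE 0.098, adjusted p = 1.568e-06). In the allografts the log2 difference between the lines was 1.03 (SE 0.26, adjusted p = 0.0142), so it was not called. It was called without tumor 319 (1.33, adjusted p = 3.829e-04), with libraries scaled by their total reads (1.29, adjusted p = 0.00616) and with all 15 samples in 1 model (adjusted p = 3.560e-04). The nearest genes were Kri1, 420 bases away, and Ap1m2, 2844 bases away. Kri1 was called in none of the comparisons. Ap1m2, which encodes an epithelial adaptor subunit, had means of 746 in Lung, 0.88 in 46LCNEC_cell, 3.02 in 46LCNEC_allo, 2620 in 57SCLC_cell and 1847 in 57SCLC_allo.

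Cdkn1b encodes p27, which binds Cdk2 complexes and is controlled largely by its destruction, a step that RNA does not show. Its group means ran from 3296 in 46LCNEC_allo to 8063 in 57SCLC_cell. Lung held 5304, 4332 and 4564 normalized counts, the 46LCNEC_cell dishes 4266, 3875 and 3574, and the 46LCNEC_allo tumors 3653, 3579.7 and 2656. The 57SCLC_cell flasks held 8590.5, 8434 and 7165.5, and the 57SCLC_allo tumors 5446, 6156.5 and 5841. The 57SCLC groups lay above all lungs and the 46LCNEC groups below them.

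The change of Cdkn1b reached 2-fold in 1 comparison, 57SCLC_cell against 46LCNEC_cell, where it rose by 1.04 on the log2 scale (SE 0.10, 95% interval 0.81 to 1.28, adjusted p = 2.983e-05). Without dish C of 46LCNEC_cell (0.98) or flask A of 57SCLC_cell (1.00) it was just short of 2-fold. Tested against a fold change of 2, it was not called (adjusted p = 0.743). In the allografts the log2 difference between the lines was 0.83 (SE 0.14, adjusted p = 0.00281), which was called with libraries scaled by their total reads (1.09, adjusted p = 3.785e-04). Against Lung the log2 differences were -0.28 in 46LCNEC_cell (adjusted p = 0.0258), -0.53 in 46LCNEC_allo (adjusted p = 0.0224), 0.77 in 57SCLC_cell (adjusted p = 3.087e-04) and 0.30 in 57SCLC_allo (adjusted p = 0.0218). Its neighbor Gpr19, 21823 bases away, a receptor gene, rose against Lung by 2.62 in 57SCLC_cell and by 2.58 in 57SCLC_allo, and its other neighbor Apold1, 56205 bases away, had means of 29.8 and 30.7 in the cultures of 46LCNEC and 57SCLC against 575 in Lung.

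Cdkn1c encodes p57 and is imprinted, being read mainly from the maternal allele, and its RNA was far lower in the 46LCNEC cultures than in any other group. Lung held 719, 929 and 782 normalized counts. The dishes of 46LCNEC_cell held 31.0, 36.4 and 37.7, the lowest of them from 33 reads. The tumors of 46LCNEC_allo held 264, 119 and 746, so that tumor 321 lay within the range of the lungs and tumor 319 far below it. The flasks of 57SCLC_cell held 1543, 1615 and 2082, and the tumors of 57SCLC_allo 1039, 1079 and 834. The 57SCLC_cell flasks were above all other samples, and 57SCLC_allo overlapped Lung.

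In 46LCNEC_cell Cdkn1c fell by 4.49 on the log2 scale against Lung (SE 0.16, 95% interval -4.86 to -4.12, adjusted p = 1.406e-08), and it was 48.3-fold higher in 57SCLC_cell than in 46LCNEC_cell (log2 difference 5.59, SE 0.16, adjusted p = 2.800e-08). It rose by 1.10 in 57SCLC_cell against Lung (SE 0.14, adjusted p = 1.891e-04), a call lost without flask C (0.97), with all 15 samples in 1 model (adjusted p = 0.0332) and when tested against a fold change of 2 (adjusted p = 0.477). The log2 difference of 57SCLC_allo from Lung was 0.28 (95% interval -0.04 to 0.60, adjusted p = 0.0967). That of 46LCNEC_allo from Lung was -1.49 (95% interval -2.96 to -0.01, adjusted p = 0.0729), which was called without tumor 321 (-2.18, adjusted p = 0.00254) and with all 15 samples in 1 model (adjusted p = 0.00785). Without tumor 319 it was -0.86 (adjusted p = 0.133). The lines differed less in the allografts, by 1.77 (SE 0.61, adjusted p = 0.0437), which was called without tumor 321 (2.46, adjusted p = 0.00184) and with all 15 samples in 1 model (adjusted p = 0.00268). This difference was 1.14 without tumor 319 (adjusted p = 0.0663). The interaction, the difference between the lines in allografts minus that in cells, was -3.82 (SE 0.67, 95% interval -5.28 to -2.36, adjusted p = 9.470e-04).

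From culture to allograft Cdkn1c rose 8.0-fold in 46LCNEC (log2 difference 3.0, SE 0.60, 95% interval 1.59 to 4.41, adjusted p = 0.00499). The call was lost without dish A, B or C (adjusted p 0.0257, 0.0196 and 0.0208), where 2 samples stood for the cells, and without tumor 312 (3.06, adjusted p = 0.0145). Without a dish the calls over all genes fell as well, from 3738 to between 2328 and 2722. The Cdkn1c call held without tumor 321 (2.31, adjusted p = 0.00316) and without tumor 319 (3.63, adjusted p = 6.488e-04), so the fold ran from 4.96 to 12.4 with the tumor left out. The samples of both groups did not overlap. In 57SCLC the log2 difference of allograft from culture was -0.82 (SE 0.14, adjusted p = 0.00250), under 2-fold. In a bulk sample, fewer cells of a type and less RNA per cell cannot be told apart.

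Markers of host cell types rose from culture to allograft in 46LCNEC, as Cdkn1c did. In 46LCNEC_allo against 46LCNEC_cell (background 22.8%), 6 of 7 endothelial markers rose, as did 7 of 7 fibroblast and pericyte markers and 4 of 4 leukocyte markers tested. Itgam was listed at 0 in all samples. The summed leukocyte markers ran from 331 to 383 normalized counts in the cells and were 10718, 8027 and 14585 in tumors 312, 319 and 321, in the order of Cdkn1c (319 lowest, 321 highest). The summed endothelial markers, 398 to 490 in the cells, were 10188, 5956 and 9621 in these tumors, and those of fibroblasts and pericytes, 82234 to 92731 in the cells, were 854682, 762206 and 432572. Neither of these sums followed the order of Cdkn1c, and that of fibroblasts and pericytes was lowest in tumor 321. The fibroblast and pericyte sum of the cultures was above that of Lung (27160 to 32386), so in 46LCNEC these are not markers of host cells alone. The part of host cells in the rise of Cdkn1c was not tested. In 57SCLC the leukocyte sum went from 231 to 257 in the cells to 2782 to 4627 in the allografts, and that of fibroblasts and pericytes from 25.0 to 32.2 up to 40542 to 62734, while Cdkn1c was lower in the allografts.

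Kcnq1, a potassium channel gene of the same imprinted domain 31281 bases from Cdkn1c, had a like pattern. Its means were 1374 in Lung, 10.7 in 46LCNEC_cell, 339.8 in 46LCNEC_allo, 1229 in 57SCLC_cell and 1311 in 57SCLC_allo. It fell by 6.87 on the log2 scale in 46LCNEC_cell against Lung (adjusted p = 1.185e-09) and by 2.09 in 46LCNEC_allo (adjusted p = 8.277e-04), and rose by 4.79 from 46LCNEC_cell to 46LCNEC_allo (adjusted p = 4.584e-05). Slc22a18, the neighbor on the other side at 12660 bases, was lower than in Lung in all 4 groups, with means of 187 in Lung and 3.43, 12.1, 31.9 and 18.6 in 46LCNEC_cell, 46LCNEC_allo, 57SCLC_cell and 57SCLC_allo. Of the 8 imprinted neighbors listed, 3 of 5 tested fell against Lung in 46LCNEC_cell (Kcnq1, Slc22a18 and Phlda2) and 3 of 5 in 57SCLC_cell (Slc22a18, Phlda2 and Cd81), near the backgrounds of 55.6% and 53.8%, so nothing is read from the list. Cdkn1c shares 625 exon bases, 29% of its exons, with the antisense gene Gm44732, which was listed at 0 in all samples. The strand setting of the counting was not given, so how reads in this overlap were counted is not known. The values of Cdkn1c per kilobase below use all of its exons, this overlap included.

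Levels of different genes were set side by side per kilobase of merged exons. The 4 INK4 genes summed to 1457 ± 68.1 normalized counts per kilobase in Lung (SD, n = 3), to 13581 ± 689 in 46LCNEC_cell, 10696 ± 2767 in 46LCNEC_allo, 5566 ± 150 in 57SCLC_cell and 5205 ± 85.5 in 57SCLC_allo. The sum takes all Cdkn2a reads, which could not be split between p16Ink4a and p19Arf, and p19Arf is not an INK4 protein. The makeup of that sum changed with the group. In Lung, Cdkn2b gave 45.1% of it and Cdkn2d 33.4%, with 11.6% from Cdkn2a. In 46LCNEC_cell Cdkn2a gave 80.7%, and in 46LCNEC_allo 71.2%. In 57SCLC_cell Cdkn2a gave 48.4%, Cdkn2d 32.7%, Cdkn2c 17.04% and Cdkn2b 1.87%. The order of Cdkn2c and Cdkn2d there depended on the lengths used: with those of the canonical transcripts, tried after the data were seen, Cdkn2c gave 27.9% ± 3.71 and Cdkn2d 24.4% ± 1.83 (SD, n = 3). In 46LCNEC_cell Cdkn2a gave 80.4% with these lengths, and in Lung Cdkn2b gave 37.5%.

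The kinases that INK4 proteins bind moved as well. Cdk4 rose against Lung in all 4 groups, by 1.38, 1.14, 1.89 and 1.80 on the log2 scale in 46LCNEC_cell, 46LCNEC_allo, 57SCLC_cell and 57SCLC_allo. Cdk6 was present in Lung (2642 to 2879.7 normalized counts) and in 46LCNEC (4206 to 6897), but the 57SCLC_cell flasks held 0.55, 1.2 and 0.52, from 1, 2 and 1 reads, at or under the floor of 3 reads, and the 57SCLC_allo tumors 311, 255 and 389. The D-type cyclins were low in 57SCLC_cell as well. Ccnd1 had means of 3272 in Lung, 9539.6 in 46LCNEC_cell, 3056 in 46LCNEC_allo, 16.7 in 57SCLC_cell and 234 in 57SCLC_allo. Ccnd2 was listed at 0 in all 57SCLC_cell flasks, with means of 4619 in Lung and 209 in 46LCNEC_cell. Ccnd3 fell against Lung by 3.01 on the log2 scale in 57SCLC_cell and by 2.31 in 57SCLC_allo. Between the lines, 4 of the 5 partner genes fell in 57SCLC_cell and 3 of 5 in 57SCLC_allo. Over all genes, 46.1% and 30.4% were called in these comparisons, in either direction. From 57SCLC_cell to 57SCLC_allo Cdk6, Ccnd1 and Ccnd2 rose (background 16.6%). So did 6 of 7 endothelial, 7 of 7 fibroblast and pericyte and 6 of 6 leukocyte markers tested. The part of host cells in these changes was not tested.

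Per kilobase, Cdk4 and Cdk6 together made 656 normalized counts in Lung, 1514 in 46LCNEC_cell, 1437 in 46LCNEC_allo, 1711 in 57SCLC_cell and 1638 in 57SCLC_allo. Cdk6 gave 29.3% of this in Lung, 20.4% in 46LCNEC_cell and at most 0.00697% in 57SCLC_cell, as computed from the floor of 3 reads in a flask. The D-type cyclins summed to 1677 in Lung, 2385 in 46LCNEC_cell, 1025 in 46LCNEC_allo, 66.5 in 57SCLC_cell and 241.5 in 57SCLC_allo. The ratio of the INK4 sum to Cdk4 plus Cdk6 was 2.23 ± 0.105 in Lung, 8.98 ± 0.576 in 46LCNEC_cell, 7.54 ± 2.32 in 46LCNEC_allo, 3.26 ± 0.171 in 57SCLC_cell and 3.19 ± 0.223 in 57SCLC_allo (SD, n = 3 each). The order of the groups was the same with the lengths of the canonical transcripts, a choice made after the data were seen, with ratios of 1.75, 7.91, 6.92, 2.83 and 2.67 in the same order of groups. The 57SCLC groups overlapped each other in this ratio, and so did the 46LCNEC groups. Because any Arf reads of Cdkn2a are in the sum, the ratio may not set INK4 RNA alone against kinase RNA.

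**Figure D4:**
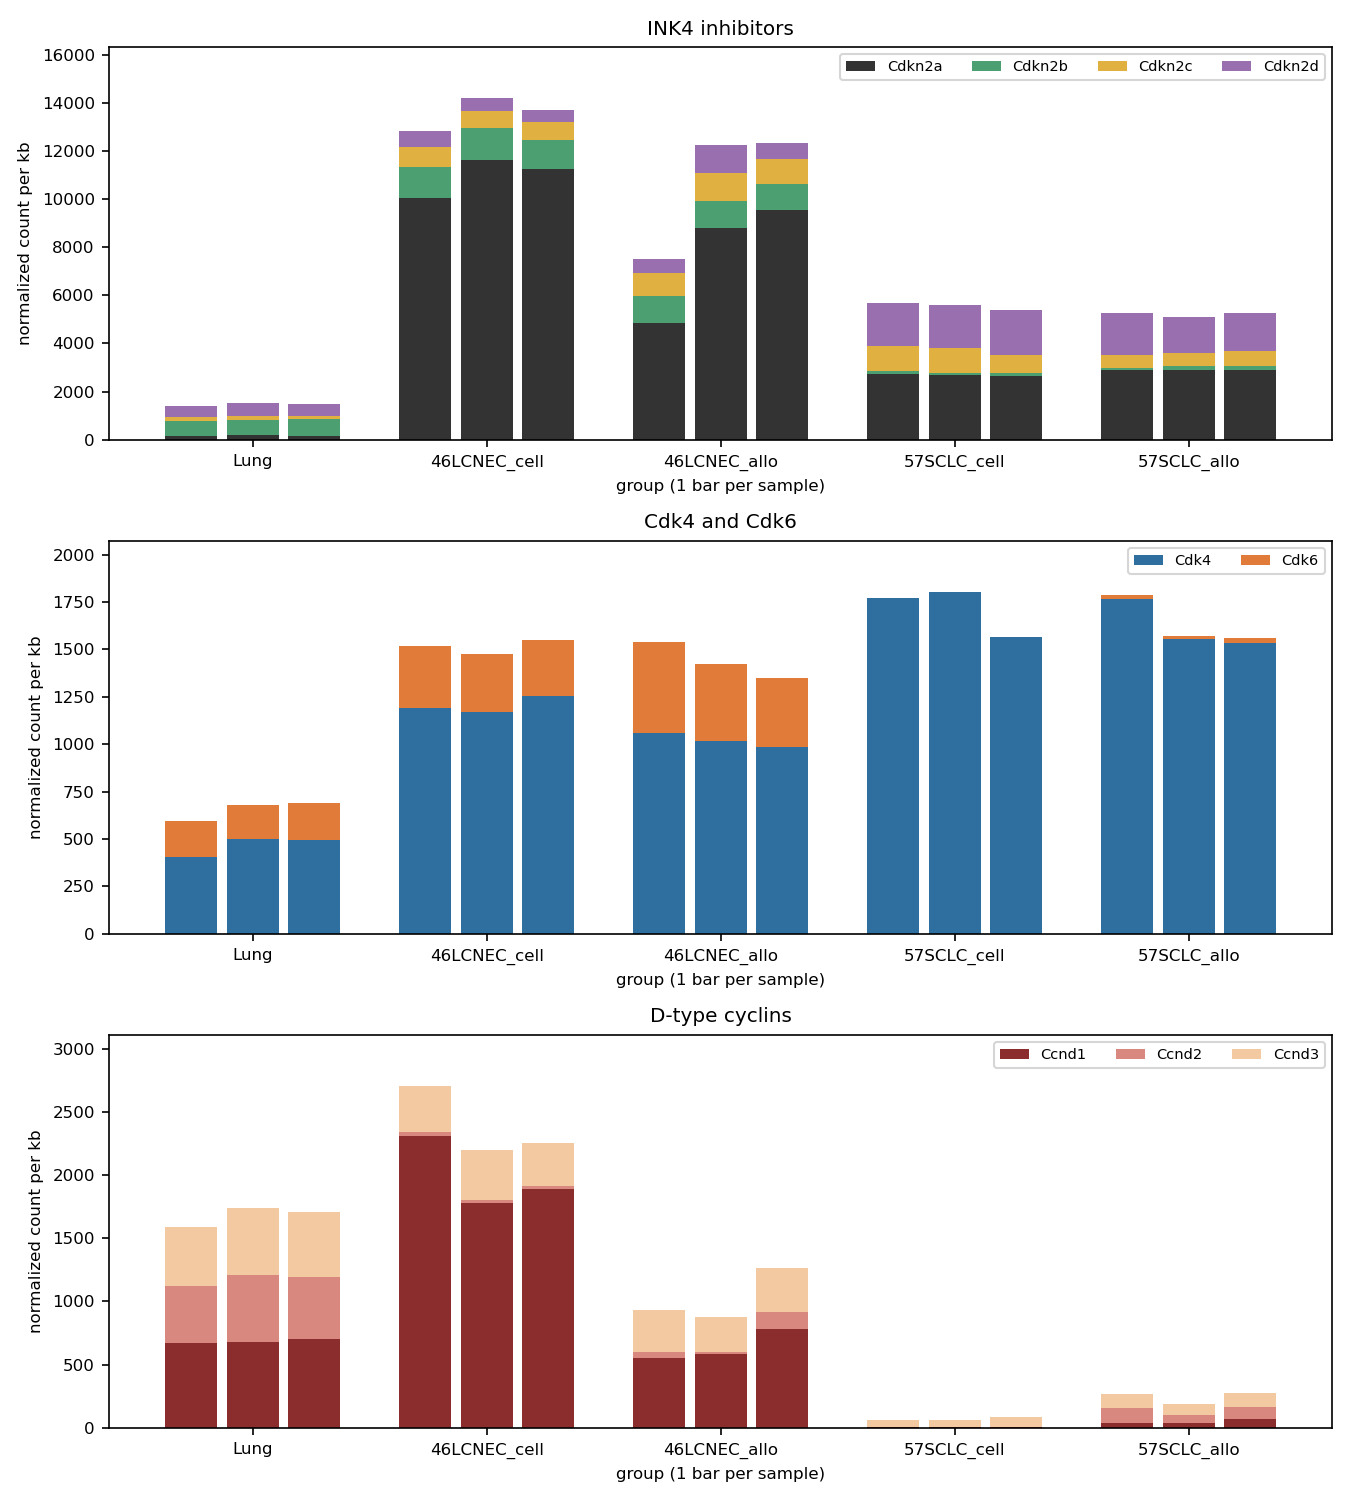
Normalized counts per kilobase (y axis, from 0) stacked by gene in each of the 15 samples, for the INK4 genes, for Cdk4 and Cdk6, and for the D-type cyclins. Cdkn2a made up most of the INK4 bar in 46LCNEC, and the bar of the D-type cyclins was lowest in 57SCLC_cell, where the group mean was 66.5. The Cdkn2a part takes all reads of the gene, p16Ink4a and p19Arf together.

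The Kip genes Cdkn1b and Cdkn1c together made 1416 ± 72.5 normalized counts per kilobase in Lung, 874 ± 74.6 in 46LCNEC_cell, 899 ± 49.5 in 46LCNEC_allo, 2582 ± 36.2 in 57SCLC_cell and 1734 ± 103 in 57SCLC_allo (SD, n = 3). Cdkn1c gave 26.7% of this in Lung and 1.88% in 46LCNEC_cell. The third Kip gene, Cdkn1a, a p53 target, rose by 1.00 in 57SCLC_cell and by 1.67 in 57SCLC_allo against Lung, with means of 1708 in Lung, 3417 in 57SCLC_cell and 5404 in 57SCLC_allo. In 46LCNEC_allo it was 3753 in tumor 319, and 936 and 848.5 in tumors 312 and 321.

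Most genes on which Kip proteins act rose against Lung. Of the 7 Kip targets listed, 6 rose against Lung in 46LCNEC_cell and in 46LCNEC_allo, where Ccna1, a cyclin A gene best known from the male germ line, fell, and all 7 rose in 57SCLC_cell and in 57SCLC_allo. The backgrounds were 55.6%, 35.6%, 53.8% and 45.8% in this order of groups, over calls in both directions. Ccne1, which encodes cyclin E1, rose by 3.74, 2.95, 4.24 and 4.12 on the log2 scale in 46LCNEC_cell, 46LCNEC_allo, 57SCLC_cell and 57SCLC_allo, and Cdk2 by 1.09, 1.01, 1.51 and 1.43. The median log2 difference of the list was 3.74, 2.95, 4.24 and 4.12, against -0.23, -0.14, -0.12 and -0.087 for all genes tested. The proliferation markers named above moved the same way, 8 of 8 in each group, and Cdk1 and Ccnb1 belong to both lists.

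Of the 8 genes of the Rb family and E2F list, 3 rose and 3 fell against Lung in 46LCNEC_cell, 3 rose in 46LCNEC_allo, and 5 rose in each 57SCLC group. These shares were near or above the backgrounds of 55.6%, 35.6%, 53.8% and 45.8%, and with 8 genes nothing is read from them about the list. E2f1 rose by 2.91, 2.72, 2.87 and 2.85 in 46LCNEC_cell, 46LCNEC_allo, 57SCLC_cell and 57SCLC_allo. E2f2 set the lines apart: it rose by 4.07 in 57SCLC_cell against 46LCNEC_cell and by 3.29 in 57SCLC_allo against 46LCNEC_allo. Rb1 had means of 291, 85.7, 236, 414 and 375 in Lung, 46LCNEC_cell, 46LCNEC_allo, 57SCLC_cell and 57SCLC_allo, but a count per gene does not show whether the floxed exons are present, and it does not check the deletion.

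On the Arf side, 2 of the 6 genes of the ARF and p53 list rose against Lung in 46LCNEC_cell, 1 in 46LCNEC_allo and 2 in each 57SCLC group, each a smaller share than the background of that comparison (55.6%, 35.6%, 53.8% and 45.8%). Npm1, a nucleolar partner of Arf, rose by 2.79, 1.75, 1.34 and 1.44 in 46LCNEC_cell, 46LCNEC_allo, 57SCLC_cell and 57SCLC_allo. Mdm2, which Arf inhibits, had means of 2845 in Lung, 2132 in 46LCNEC_cell, 1636 in 46LCNEC_allo, 3162 in 57SCLC_cell and 3084 in 57SCLC_allo and was called in none of these 4 comparisons. Of 8 genes tested on the list for turnover of p27 and p57, 2 were called in each group, and 3 in 57SCLC_cell, again smaller shares than the backgrounds. Skp2 and Cks1b rose in all 4 groups. Skp2, which marks p27 for destruction, rose by 3.57, 3.54, 2.74 and 2.96, and its cofactor Cks1b by 4.66, 3.83, 3.41 and 3.47.

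Of the 12 Polycomb and T-box genes, which are known to repress the Cdkn2a locus, 2 rose and 4 fell against Lung in 46LCNEC_cell, 2 rose and 5 fell in 46LCNEC_allo, 4 rose and 2 fell in 57SCLC_cell, and 4 rose and 3 fell in 57SCLC_allo. The backgrounds were 55.6%, 35.6%, 53.8% and 45.8%, and nothing is read from these counts about the list as a whole. The T-box gene Tbx2 fell in each of these groups, with log2 differences of -7.78, -7.07, -9.87 and -6.64 and means of between 16.8 and 170.08 against 16541 in Lung. Tbx3 fell in each as well, with log2 differences of -3.04, -2.41, -3.85 and -5.43. Ezh2, the methyltransferase of the Polycomb repressive complex that marks histone H3, rose by 2.43, 2.05, 3.05 and 2.72. Cbx7, a reader of that mark, fell by 2.39 in 46LCNEC_cell, with a log2 difference of -2.59 in 46LCNEC_allo, and was 1.53 and 1.90 higher on the log2 scale in 57SCLC than in 46LCNEC, in cells and in allografts. Bmi1 rose by 1.26 in 57SCLC_cell against Lung and by 1.41 against 46LCNEC_cell.

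Of the 11 genes listed as activators of Cdkn2a, Cdkn2b or Cdkn1b, 5 fell and 1 rose against Lung in 46LCNEC_cell, 2 fell in 46LCNEC_allo, 5 fell in 57SCLC_cell and 4 fell in 57SCLC_allo. These shares were below the backgrounds (55.6%, 35.6%, 53.8% and 45.8%). For Smad3, a transducer of TGF-beta signaling, the means were 2595 in Lung, 3586 in 46LCNEC_cell, 4311 in 46LCNEC_allo, 92.0 in 57SCLC_cell and 453 in 57SCLC_allo. It fell in 57SCLC_cell and 57SCLC_allo, with log2 differences of -4.86 and -2.53 from Lung and of -5.33 and -3.26 from 46LCNEC_cell and 46LCNEC_allo. Smad2 and Smad4, which act with it and are on the same list, were called in none of the comparisons. Ets1 fell in all 4 groups against Lung, with log2 differences of -1.66, -1.12, -2.93 and -2.51.

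**Figure D5:**
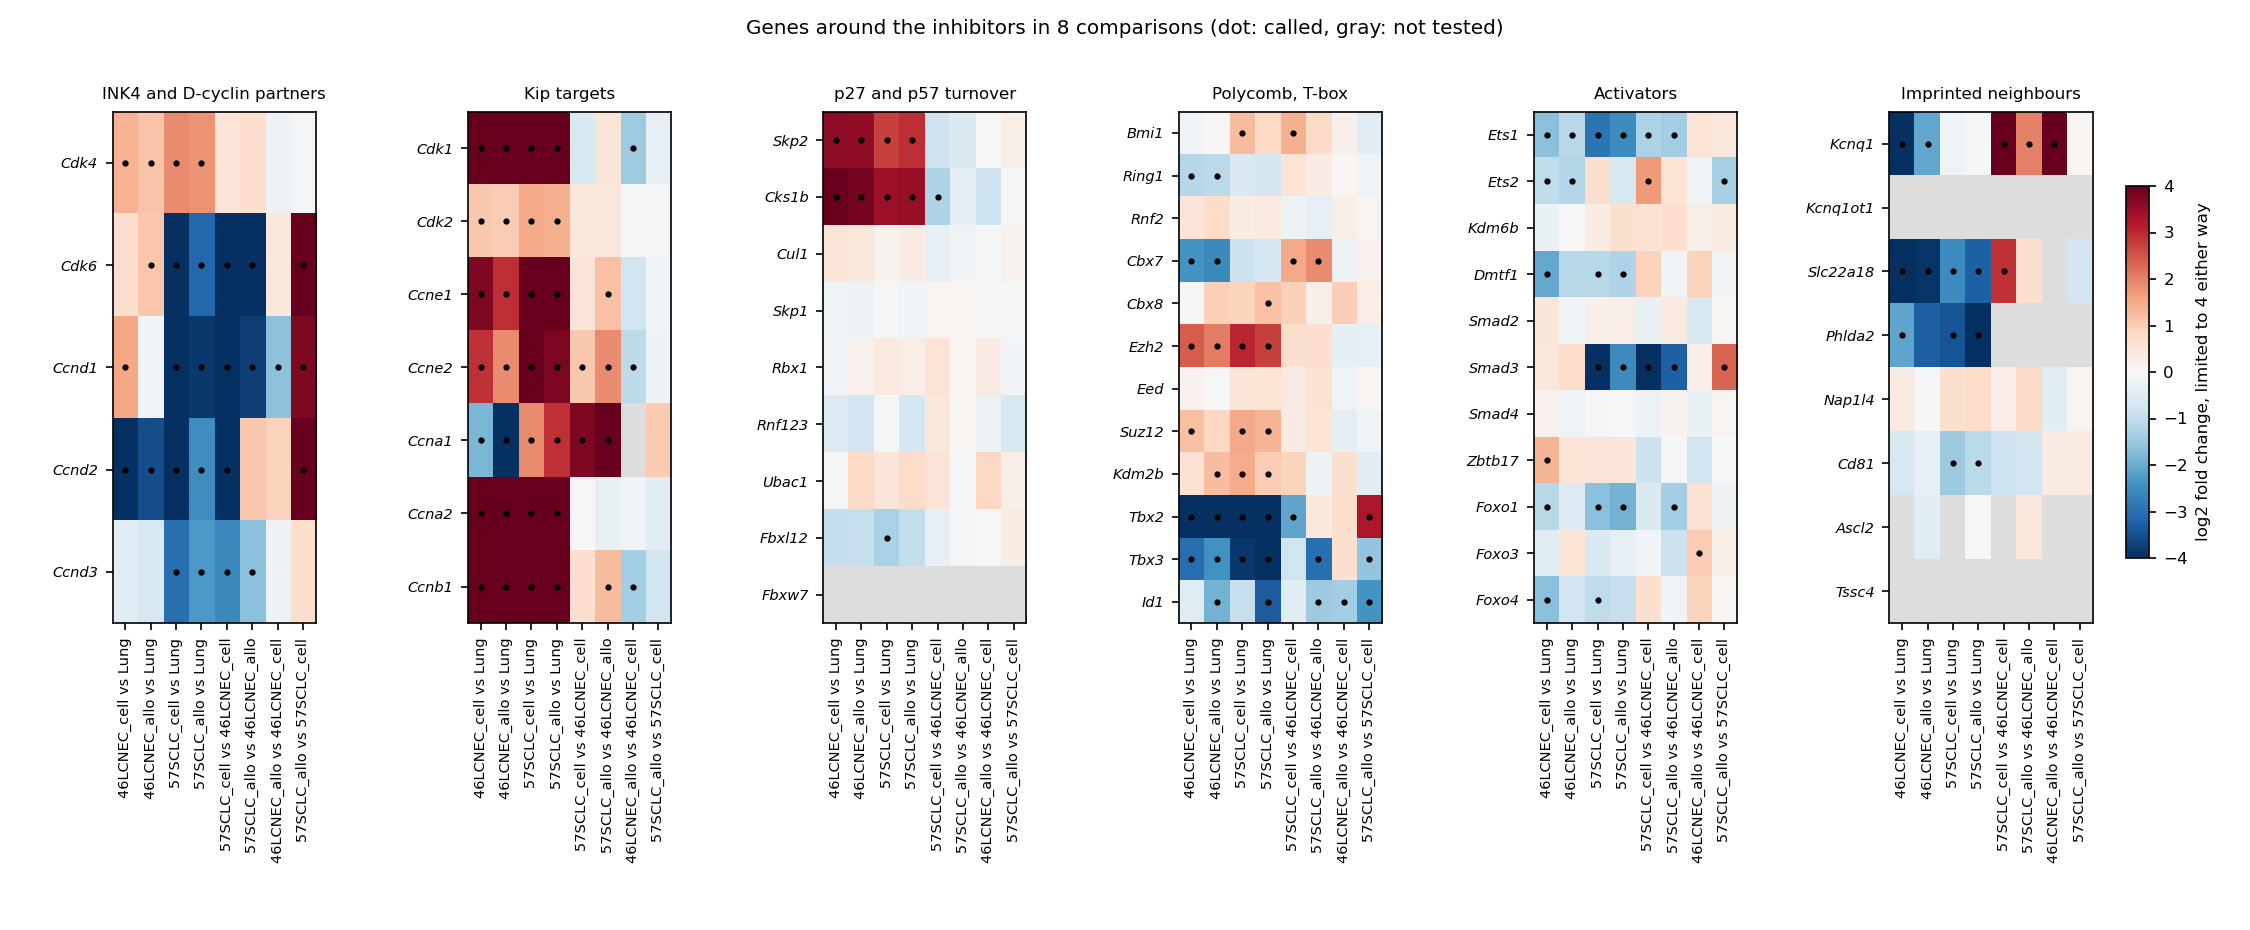
Log2 fold changes of the genes of 6 pathway lists (rows) in 8 comparisons (columns), with colors limited to 4 on the log2 scale either way, a dot where the gene was called and gray where it was not tested. Kip targets were mostly red against Lung, and Cdk6 and the D-type cyclins were blue in 57SCLC_cell against Lung.

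Across the 15 samples, the genes most like each member in pattern were found by Pearson's r of log2(normalized count + 1) among 19615 other genes. The samples come in 5 groups of replicates, so these correlations mainly compare the groups and are given as descriptions. The nearest to Cdkn2a were the processed pseudogene Gm6091 (r = 0.991), Hdac6 (0.990) and Bri3bp (0.989), and to Cdkn2b they were Epb41l1 (0.993), Plcd3 (0.993) and Nacc2 (0.992). For Cdkn2c they were Baz1b (0.981), the processed pseudogene Gm8396 (0.980) and Rnft2 (0.977), and for Cdkn2d Golga7b (0.981), Hs6st1 (0.977) and Syt16 (0.970). For Cdkn1b they were Foxa1 (0.969), Trappc13 (0.965) and Poc5 (0.965), and for Cdkn1c Slc9a7 (0.985), Tbc1d8 (0.984) and Rnf130 (0.975). Among the members themselves, over the same 15 samples, Cdkn2a and Cdkn2c were the most alike (r = 0.906), and Cdkn2b ran opposite to Cdkn1b (r = -0.896) and to Cdkn2d (r = -0.859).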

How the data were processed

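RNA of 15 samples was poly-A selected and sequenced in pairs of reads of 150 bases. The authors used Rbowtie2 to align the reads to GRCm39 and featureCounts to count them by gene (GENCODE release 27), then scaled each library by its DESeq2 size factor. The deposited values are a signal, the normalized count. The strand setting of the counting was not given in the sources used here. Every non-zero value of a sample (100%) was a whole multiple of 1 step (within 0.1 read), which gave back the reads, 9480244 to 44876572 per sample. A floor of 3 reads was taken as not detected and covers counting error only.

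As the values were normalized, the planned edgeR test on counts gave way to limma 3.58.1 (R 4.3.3), run on log2(normalized count + 1) and allowing for a trend of variance with mean. Genes entered a fit if 3 or more of its samples held 10 or more normalized counts. Each comparison used its 6 samples and the interaction 12. Calls needed an adjusted p (Benjamini and Hochberg) of 0.01 or less and a fold change of 2 or more. Alternatives were edgeR 4.0.16 and DESeq2 1.42.0 on the recovered reads, other scalings, pseudocounts, filters and thresholds, all 15 samples in 1 model, each sample left out in turn, and canonical transcript lengths (added after the data were seen). The code was tested on simulated data.

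Genes named were the 6 members, kinases, cyclins and regulators set by name, the nearest protein-coding gene on each side of a member, the 3 genes most correlated with each member, and at most 3 further genes per pathway list. Members and lists were chosen with earlier results of these data known. The genotype is not reported here in full. Coordinates, exon lengths and promoter windows came from GENCODE release 39 of GRCm39. Figures were drawn with matplotlib 3.10.9 in Python 3.11.15. The letters A, B and C of the dishes and flasks were not taken as pairs.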

Additional observations from a re-analysis of the deposited data

Results flagged for a closer look

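For 6 genes, the difference between the lines was not the same in the allografts as in the cultures, by the interaction term of limma over 12 samples (log2 difference of 57SCLC from 46LCNEC in allografts minus that in cells, called at an adjusted p of 0.01 or less and a fold change of 2 or more, background 17.5% of genes). Of the 6 members, 2 were called, Cdkn2c with -1.19 (adjusted p = 4.808e-04) and Cdkn1c with -3.82 (adjusted p = 9.470e-04). Among their neighbors, those called were Mtap with 1.28 (adjusted p = 0.00302), Kcnq1 with -4.70 (adjusted p = 1.421e-06), Slc22a18 with -2.23 (adjusted p = 0.00514) and Gm12610 with 1.27 (adjusted p = 0.00822). The other neighbors tested, Dmrta1, Faf1, Kri1, Ap1m2, Gpr19 and Apold1, were not called. Nothing is read from the number of genes called. Slc22a18 rested on 3 or 4 reads per dish of 46LCNEC_cell. The allografts hold host cells that the cultures lack, and the part of these cells in the 6 values was not tested.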

How the results depend on the processing

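Over 54 member values (6 genes in 8 comparisons and the interaction), 875 of 906 alternative values kept their direction and their side of the threshold. With edgeR, DESeq2, no filter and a pseudocount of 0.1 or 5 this held for all 54 member values, and with the replicate block for the 6 of 57SCLC_cell against 46LCNEC_cell, where alone it was run. The number of members called in 57SCLC_allo against 46LCNEC_allo was 2 as reported, with 5312 of all 17502 genes called. At an adjusted p of at most 0.05 the number was 4 (6381 genes), and with all 15 samples in 1 model 4 (6341 genes). Tested against a fold change of 2 the number was 1 (2861 genes), and with a sample left out 1 to 3 (3307 to 5167 genes). In 46LCNEC_allo against 46LCNEC_cell 1 member was called, with 3738 of all genes. Against a fold change of 2 this count became 0 (Cdkn1c, adjusted p = 0.0482, 1414 genes called), and with a sample left out 0 to 1 (2328 to 3256 genes). The interaction went from 2 members to 1 against a fold change of 2 (3233 to 1293 genes). Nothing particular to the members is read from these shifts, which came with shifts over all genes. Cdkn2a in 57SCLC_allo against 57SCLC_cell, not called either way, changed sign under upper-quartile scaling (-0.020). Scaling by library size raised the median log2 difference of all genes by 0.24 (57SCLC_cell against Lung), 0.213 (57SCLC_allo against Lung), 0.238 (57SCLC_cell against 46LCNEC_cell) and 0.271 (57SCLC_allo against 46LCNEC_allo), and in the last took the share of higher calls from 53.1% to 64.7%. The cause of these changes was not tested. Cultures of the same letter did not deviate together (r of their deviations 0.0916 for A, -0.0837 for B and -0.0062 for C), and with the letter as a replicate block 5 members were called in 57SCLC_cell against 46LCNEC_cell, with Cdkn2a at -2.02, as without it. When a cell sample was left out the remaining spread rested on 5 samples. Tumor 275, with 9480244 reads, had the least precise counts.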
